A study of Homo sapiens with 6 samples.

Results

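Cholesterol synthesis, uptake and export is described here through 32 genes, taken by their symbols from a table of 58735 genes. They comprised 18 enzymes of the synthesis route, 5 genes of the sterol sensor, 3 of intracellular transport and esterification, 2 of uptake and 4 exporters. RNA was sequenced from Hep-G2, an established human liver cancer cell line, in 2 groups of 3 libraries. The sh-NC libraries carried a negative control short hairpin RNA (genotype WT, treatment shcontrol in the labels). The sh-CLGN libraries carried a hairpin against CLGN (genotype CLGN knock down, treatment shCLGN), the gene of calmegin, a chaperone that resides in the endoplasmic reticulum. Both hairpins were delivered by lentivirus with puromycin selection, and all 6 libraries have the same batch label. Each group had a single hairpin, so effects of losing CLGN and other effects of that hairpin cannot be told apart. Levels are FPKM, fragments scaled to gene length and library size.

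Cells make cholesterol from acetyl-CoA through mevalonate, farnesyl diphosphate and squalene. The route is set by a sensor in the endoplasmic reticulum, where SCAP escorts the transcription factors SREBP-1 and SREBP-2, encoded by SREBF1 and SREBF2, to the Golgi for cleavage when sterols are low, and INSIG1 and INSIG2 hold SCAP back when sterols are high. SREBP-2 is best known for driving the genes of cholesterol synthesis and uptake, whereas the liver X receptors drive the exporters ABCA1, ABCG1, ABCG5 and ABCG8.

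CLGN itself was at 24.1, 21.0 and 26.1 FPKM in sh-NC and 9.48, 8.88 and 8.60 FPKM in sh-CLGN. It was at 37.8% of the control mean, with a log2 fold change of -1.31 (SE 0.081, limma adjusted p = 8.35e-06), and the groups did not overlap. Libraries held 14955816 to 16244639 reads. The share of mitochondrial reads was between 3.25% and 4.02% for the controls and between 5.49% and 5.80% with sh-CLGN, where 26814 to 27006 genes had a read, against 23578 to 23793. Log levels of libraries of 1 group correlated at 0.988 to 0.992 and those of different groups at 0.937 to 0.945. The library sizes behind the deposited values were 0.933 to 0.953 of the reads in sh-NC and 1.07 to 1.08 of the reads in sh-CLGN, so the deposited scale sets sh-CLGN lower than read totals do. All 8 hepatocyte markers were tested, of which 3 rose (37.5%) and 4 fell (50%), beside 26.7% and 39% of all tested genes. Their summed level was 6171 to 6389 FPKM in sh-NC and 6442 to 6934 FPKM in sh-CLGN. Within that sum, mean ALB fell from 2007 to 1076 FPKM and TF from 181 to 58.4 FPKM, while AFP rose from 2670 to 3782 FPKM. Of 10 fibroblast markers, 5 were tested, of which LUM, COL1A1 and COL3A1 reached the filter of 1 FPKM only in sh-CLGN and so had to differ. COL1A2 rose from 4.20 ± 0.561 to 38.7 ± 0.614 FPKM and made up most of the summed level of all 10 (7.17 to 8.51 against 48.5 to 49.9 FPKM), PDGFRB rose from 2.12 to 2.76 FPKM, and POSTN and FAP were at 0 in every library and DCN and THY1 were near 0. Endothelial markers summed to 3.33 to 3.67 FPKM against 2.38 to 2.65 FPKM, and immune markers to at most 0.133 FPKM. The part of these markers, of the mitochondrial share and of the number of genes with a read in the results that follow was not tested. In bulk RNA, fewer cells of a type and less RNA per cell cannot be told apart.

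In sh-CLGN cells, transcripts of the SREBP factors and of their escort fell. SREBF1 was at 35.1%, SREBF2 at 54.0% and SCAP at 54.8% of the control level. The summed level of the 18 enzymes, at a ratio of 0.978 to control, overlapped between the groups. That ratio was 1.05, 1.07 and 1.12 under median-ratio scaling, TPM and read totals. Single enzymes moved both ways, with CYP51A1 and NSDHL lower and IDI1 and HSD17B7 higher. The lipoprotein receptor gene SCARB1 fell to 64.2%. The exporter gene ABCG8, under 1 FPKM in every control and tested only because of its level in sh-CLGN, was at 359% of control.

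Of the 32 members, 30 passed the filter of at least 1 FPKM in at least 3 libraries and were tested with limma among 13074 genes. At an adjusted p of at most 0.05, 11 rose and 11 fell, and 8 did not pass. These calls took 73.3% of the tested members, against 65.8% of all tested genes, of which 26.7% were higher and 39% lower. A call by adjusted p alone was therefore common in this comparison, and the members' share was near the background. With a log2 change of 1 or more in size as well, 1 member was called, SREBF1 as lower, where 6.28% of all tested genes were called (3.09% higher, 3.19% lower). The count was 2 without sh-NC replicate 3 or without sh-CLGN replicate 2, where CYP51A1 passed as well. The libraries of the groups did not overlap for 24 of the 30 members (80%), against 70.2% of all tested genes. The members' median log2 fold change was -0.06, within a range of -1.43 to 0.87, and that of all tested genes was -0.08. The split of calls moved with the scale: it was 13 higher and 7 lower under median-ratio or TPM scaling, 17 and 6 under quantile normalization, 14 and 6 on read totals and 14 and 7 after removal of a GC trend. Of the 22 called members, 14 (8 higher, 6 lower) kept their direction and call under each of 19 alternatives, namely HMGCS1, IDI1, SQLE, HSD17B7, SC5D, INSIG2, MYLIP and ABCG8 as higher and CYP51A1, NSDHL, SCAP, SREBF1, SREBF2 and SCARB1 as lower. The counts of higher calls, of calls kept under all alternatives and of members without overlap include ABCG8. It passed the filter only through the group where it was high and so had to differ. How many of all called genes kept call and direction was not counted.

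**Figure D1:**
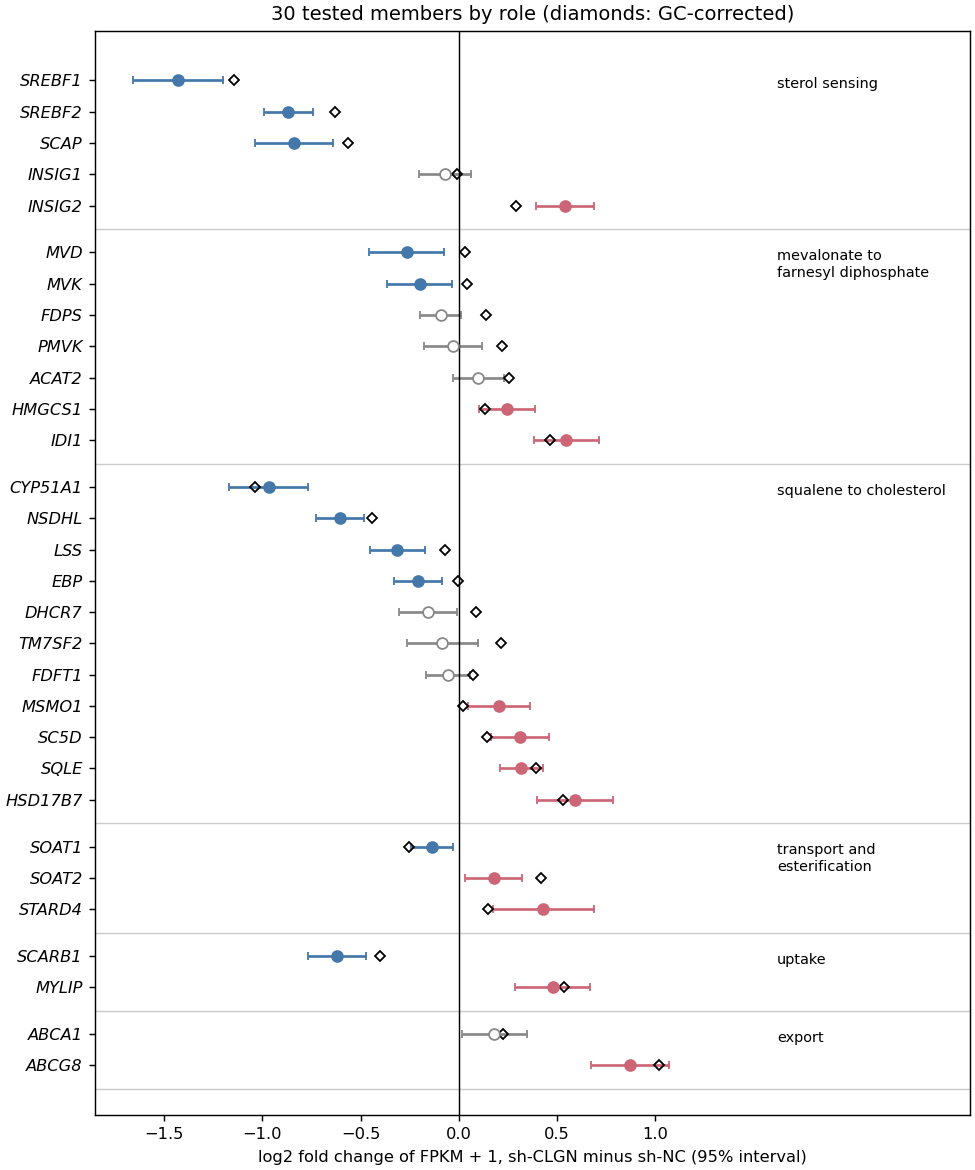
Log2 fold change of FPKM + 1 (x axis, sh-CLGN minus sh-NC) for the 30 tested members, grouped by role. Filled points passed the adjusted p, red for higher and blue for lower, open points did not, bars are 95% intervals and diamonds are values after removal of a GC trend. SREBF1, SREBF2 and SCAP lie between -1.43 and -0.84, and the enzymes lie on both sides of 0.

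The sensor was examined first. SREBF1 (chr17:17810399-17837002, minus strand, GRCh38) encodes SREBP-1, which also drives fatty acid synthesis. Its level was 36.0, 37.6 and 28.9 FPKM in the sh-NC libraries and 11.2, 11.9 and 12.8 FPKM in the sh-CLGN libraries. Every sh-CLGN library was below every sh-NC library, and sh-NC replicate 3 was the lowest of the controls. The log2 fold change was -1.43 (SE 0.098, limma adjusted p = 1.3e-05), from a mean of 34.2 ± 4.59 to 12.0 ± 0.802 FPKM (SD, n = 3), and 73 of the 13074 tested genes fell further. SREBF1 shares 556 exon bases with RAI1 on the opposite strand, which went from a mean of 1297 to 977 reads, and whether reads were counted by strand was not given in the sources used here.

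SREBF2 (chr22:41833079-41907308, plus strand) encodes SREBP-2, the main activator of the cholesterol route. It was at 57.7, 59.6 and 54.2 FPKM in sh-NC and at 29.7, 31.7 and 31.2 FPKM in sh-CLGN. Every sh-CLGN library was below every sh-NC library, and sh-NC replicate 3 was again the lowest control. The log2 fold change was -0.87 (SE 0.053, limma adjusted p = 7.94e-06), with means of 57.1 ± 2.74 and 30.9 ± 1.06 FPKM.

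SCAP, the escort and sterol sensor, was at 46.1, 49.8 and 40.4 FPKM in sh-NC and at 23.8, 23.8 and 27.1 FPKM in sh-CLGN. It fell by 0.84 on the log2 scale (SE 0.086, limma adjusted p = 8.25e-05), and the groups did not overlap. Here too, sh-NC replicate 3 was the lowest control library. Without that library, the log2 fold changes were -1.54 for SREBF1, -0.90 for SREBF2 and -0.92 for SCAP. These were the largest falls over the 19 alternatives, where the smallest were -1.15, -0.58 and -0.56.

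INSIG1 and INSIG2, which retain SCAP in the endoplasmic reticulum, did not share this pattern. INSIG1, itself a well-known target of SREBPs, was at 16.4, 16.7 and 17.8 FPKM in sh-NC and at 17.0, 15.4 and 15.9 FPKM in sh-CLGN. The groups overlapped, and the log2 fold change of -0.07 (95% interval -0.20 to 0.06, limma adjusted p = 0.307) turned positive under 4 scalings. INSIG2 was at 3.56, 3.28 and 3.70 FPKM in sh-NC and at 5.42, 5.48 and 5.79 FPKM in sh-CLGN. It rose by 0.54 (SE 0.064, limma adjusted p = 0.000173) with no overlap, and by 0.29 after removal of a GC trend. The sensor genes thus had 3 members lower (60%), 1 higher (20%) and 1 not called, with a median of -0.84. Of all tested genes, 39% were lower and 26.7% higher.

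**Figure D2:**
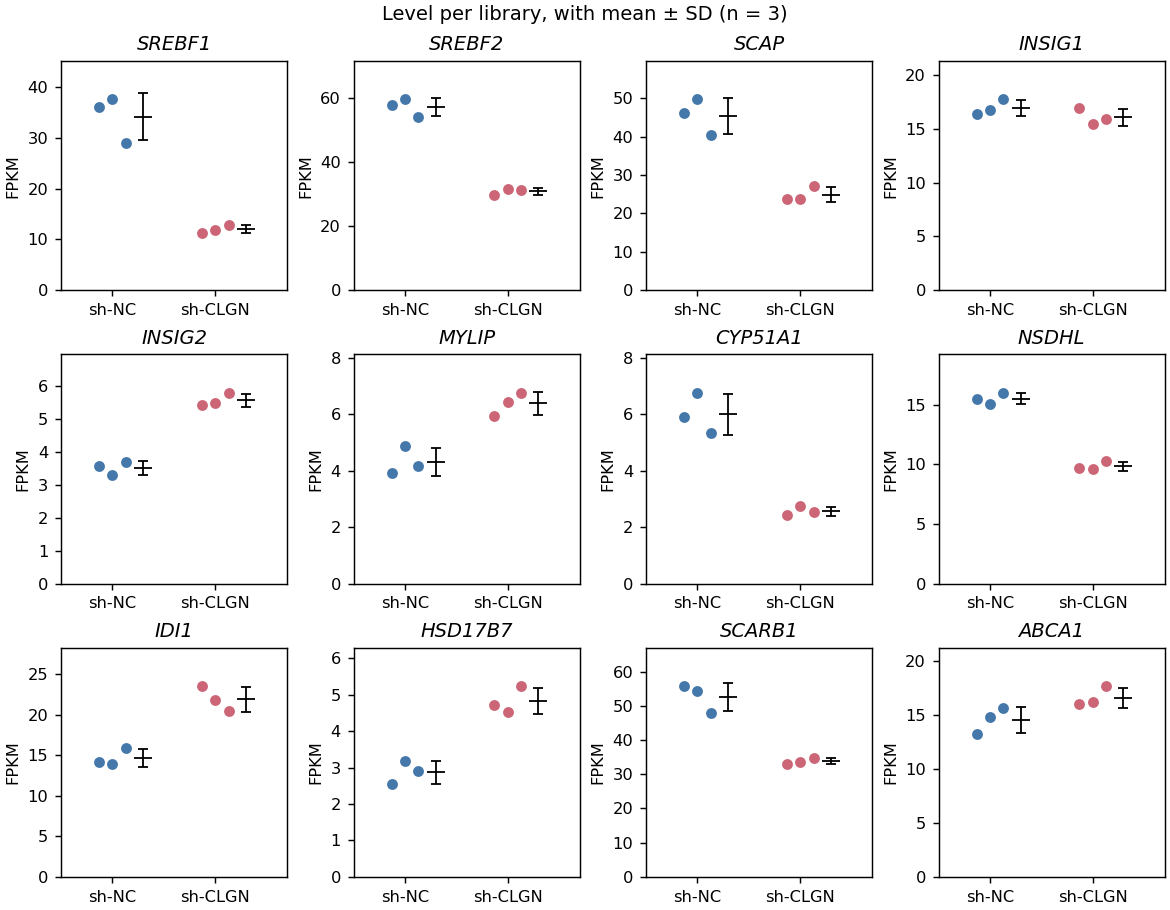
FPKM (y axes from 0, each with its own range) of 12 members in the 3 sh-NC (blue) and 3 sh-CLGN (red) libraries, with mean ± SD beside the points. SREBF1, SREBF2, SCAP, CYP51A1, NSDHL and SCARB1 have all red points below all blue points, INSIG2, MYLIP, IDI1, HSD17B7 and ABCA1 have them above, and INSIG1 overlaps.

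SREBF1 and SREBF2 each hold a microRNA of the miR-33 family in an intron, known to repress ABCA1. The mature sequences, from RefSeq on GRCh38.p14, are shown because their hosts fell, with the shared seed (bases 2 to 8) in capitals.
hsa-miR-33a-5p: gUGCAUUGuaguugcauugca
hsa-miR-33b-5p: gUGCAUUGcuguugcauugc
They lie at chr22:41900949-41900969 (plus strand, in SREBF2) and chr17:17813897-17813916 (minus strand, in SREBF1). Mature microRNAs were not measured, and the rows of both microRNA genes had at most 1 read per library. The seed match CAATGCA occurs 4 times in the longest annotated 3′ UTR of ABCA1 and once each in 3 other members, FDFT1, LSS and SCAP, while the other 28 members had none. In ABCA1 the first of these matches starts 134 bases after the stop codon, and the first overlaps the second. The first and the last are shown with the match in capitals.
ABCA1 first match: gatactattCAATGCAatgcaattc
ABCA1 last match: taattgcaaCAATGCAaaagccaag
A match of letters is a description, not a site of binding. For FDFT1 and LSS the match lies in coding sequence of 13 of 18 and 1 of 6 coding transcripts.

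The enzymes up to farnesyl diphosphate were examined next. Of these 7, 2 rose, 2 fell and 3 did not pass (57.1% called, against 65.8% of all tested genes). IDI1, which isomerises isopentenyl diphosphate, was at 14.2, 13.9 and 15.9 FPKM in sh-NC and at 23.5, 21.7 and 20.5 FPKM in sh-CLGN. All sh-CLGN libraries were above all sh-NC libraries, at 149% of the control mean (log2 fold change 0.55, SE 0.071, limma adjusted p = 0.000287). HMGCS1, which condenses acetyl-CoA and acetoacetyl-CoA into HMG-CoA, rose from 67.9 ± 5.02 to 80.5 ± 2.40 FPKM (0.24, adjusted p = 0.00849).

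MVK, mevalonate kinase, fell by 0.20 and MVD, the mevalonate diphosphate decarboxylase, by 0.26, at limma adjusted p of 0.0359 and 0.0221. Both calls were lost under each of the 4 other scalings, and the sign turned after removal of a GC trend (0.04 and 0.03). MVK shares 306 exon bases with MMAB on the opposite strand, whose mean was 857 reads in the controls and 535 with sh-CLGN, so the level of MVK is uncertain. ACAT2 (0.10), PMVK (-0.03) and FDPS (-0.09) did not pass, with adjusted p of 0.149, 0.686 and 0.0989. ACAT2 was called as higher under 5 of the 19 alternatives, the 4 other scalings and the GC correction, with the largest value under quantile normalization (0.37). ACAT2 shares 397 exon bases with TCP1 on the opposite strand, whose mean was 5893 reads in the controls and 5567 with sh-CLGN, so its level is uncertain. The summed level of these 7 enzymes was 209, 206 and 213 FPKM in sh-NC and 228, 225 and 217 FPKM in sh-CLGN. The sh-CLGN libraries were all higher, at a ratio of 1.06, and the exact permutation p of 0.1 is the smallest that 3 against 3 libraries allow.

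Between squalene and cholesterol, 4 of 11 enzymes rose, 4 fell and 3 did not pass (72.7% called, against 65.8% of all tested genes). The largest fall was in CYP51A1, the lanosterol demethylase and a cytochrome P450, at 5.90, 6.77 and 5.32 FPKM in sh-NC and 2.42, 2.74 and 2.54 FPKM in sh-CLGN. All sh-CLGN libraries were below all controls, at 42.8% of the control mean (log2 fold change -0.97, SE 0.087, limma adjusted p = 4.55e-05). Its value was -1.22 with voom on recovered reads and -1.04 after removal of a GC trend. CYP51A1 shares 2844 exon bases (79.35% of its own) with AC000120.2 on the same strand, which had a mean of 0 reads in both groups. How reads on shared bases were counted is not known here, so the level of CYP51A1 is uncertain. NSDHL, a sterol dehydrogenase that acts in the removal of further methyl groups, was at 15.5, 15.1 and 16.0 FPKM in sh-NC and at 9.69, 9.60 and 10.3 FPKM in sh-CLGN. It fell by 0.61 (SE 0.053, limma adjusted p = 3.79e-05) with no overlap.

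HSD17B7 encodes the ketosteroid reductase of the same demethylation as NSDHL. It was at 2.55, 3.17 and 2.89 FPKM in sh-NC and at 4.73, 4.52 and 5.24 FPKM in sh-CLGN. It rose by 0.59 (SE 0.083, limma adjusted p = 0.000437) with no overlap, opposite in direction to NSDHL. SQLE, the squalene epoxidase, rose from 16.3 ± 0.484 to 20.6 ± 0.431 FPKM (0.32, adjusted p = 0.000615). SC5D, the lathosterol desaturase, rose by 0.31 (limma adjusted p = 0.0032), and MSMO1, the sterol methyl oxidase, by 0.20 (adjusted p = 0.0299), with a call lost under 8 alternatives.

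LSS, which closes the lanosterol ring, fell by 0.31 and EBP, the sterol isomerase, by 0.21, at limma adjusted p of 0.00229 and 0.0092. Both calls were lost on read totals and after removal of a GC trend, which left -0.07 for LSS. Under quantile normalization the call of LSS was lost as well and EBP was called as higher (0.12, limma adjusted p = 0.0447), and under median-ratio and TPM scaling the call of EBP was lost. FDFT1 (-0.05), TM7SF2 (-0.08) and DHCR7 (-0.16), the squalene synthase, a sterol reductase and the last reductase of the route, did not pass, with adjusted p of 0.341, 0.370 and 0.0583. For DHCR7 the groups did not overlap, at 101 ± 7.55 and 90.1 ± 3.60 FPKM. The summed level of the 11 enzymes was 415, 406 and 389 FPKM in sh-NC and 377, 375 and 379 FPKM in sh-CLGN, a ratio of 0.934 with no overlap (exact permutation p = 0.1). The ratio turned to 1.01, 1.02 and 1.07 under median-ratio scaling, TPM and read totals.

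Over all 18 enzymes the summed levels were 624, 613 and 603 FPKM in sh-NC and 604, 600.1 and 596 FPKM in sh-CLGN. The groups overlapped, at a ratio of 0.978 (exact permutation p = 0.2). Abundant enzymes weigh most in such a sum, with control means of 127 FPKM for EBP and 5.99 FPKM for CYP51A1. Of the 18 enzymes, 6 rose, 6 fell and 6 did not pass (66.7% called, against 65.8% of all tested genes). SREBF1 and SREBF2 together went from 91.3 ± 7.30 to 42.8 ± 1.69 FPKM, a ratio of 0.469. On read totals the ratio of the enzymes was 1.12 and that of the 2 factors 0.537, so the direction of the enzyme sum depends on the scale and that of the factors does not under the 3 scalings tried. The protein, its cleavage and sterol levels were not measured.

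**Figure D3:**
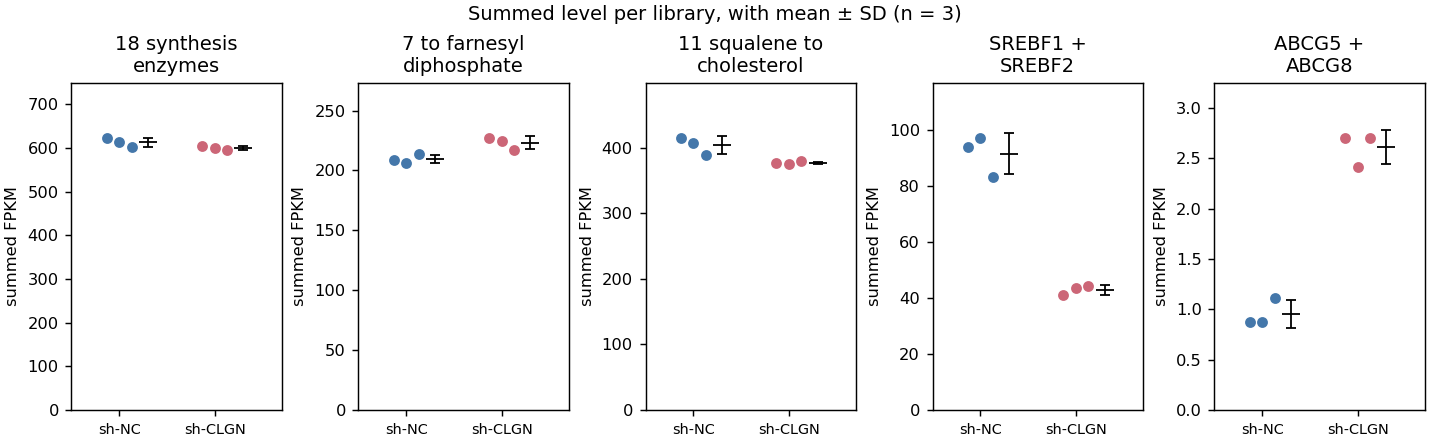
Summed FPKM (y axes from 0, each with its own range) of 5 groups of members in the sh-NC (blue) and sh-CLGN (red) libraries, with mean ± SD. The sum over 18 enzymes overlaps between the groups, the sum of SREBF1 and SREBF2 goes from 91.3 to 42.8 FPKM, and that of ABCG5 and ABCG8 from 0.953 to 2.61 FPKM.

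Promoter sequence was compared across the members, because SREBP-2 is known to bind sterol response elements beside CCAAT boxes. Windows from 250 bases before to 50 after the RefSeq start (GRCh38.p14) were given for 26 of the 32 members. Both strands were searched. The letters TCACNCCAC, a core of the sterol response element, were found in the window of SREBF2 alone among the members. They were found for 1.39% of all 27305 genes with a window. CCAAT was found for 18 of 26 members (69.2%) and for 13 of the 15 synthesis enzymes with a window, against 39.7% of all 27305 genes with one. By direction, it was found for 7 of 9 members that rose, 7 of 10 that fell and 4 of 7 others, so members with CCAAT moved both ways. The E-box CACGTG was found for 5 of 26 members and in 8.78% of all genes. A window without these letters does not speak to binding, since other spellings and distances were not searched.

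Windows of 3 members are shown with the matches in capitals: SREBF2, which fell and alone has the sterol response element core, and NSDHL and HSD17B7, which act in the same demethylation and moved in opposite directions. They lie at chr22:41832855-41833154, chrX:152830813-152831112 and chr1:162790452-162790751, all on the plus strand.
SREBF2: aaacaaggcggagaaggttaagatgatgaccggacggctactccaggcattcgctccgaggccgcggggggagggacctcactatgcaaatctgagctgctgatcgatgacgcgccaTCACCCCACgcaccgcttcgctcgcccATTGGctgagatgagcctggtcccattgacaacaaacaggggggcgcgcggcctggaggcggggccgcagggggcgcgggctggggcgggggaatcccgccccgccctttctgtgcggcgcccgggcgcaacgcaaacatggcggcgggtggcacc
NSDHL: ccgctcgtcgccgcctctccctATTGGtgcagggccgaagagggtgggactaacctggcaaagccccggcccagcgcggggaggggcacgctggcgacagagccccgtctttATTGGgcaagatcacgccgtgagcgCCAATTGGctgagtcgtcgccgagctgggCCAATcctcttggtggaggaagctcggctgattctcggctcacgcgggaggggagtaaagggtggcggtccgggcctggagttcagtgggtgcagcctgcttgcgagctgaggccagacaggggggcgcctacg
HSD17B7: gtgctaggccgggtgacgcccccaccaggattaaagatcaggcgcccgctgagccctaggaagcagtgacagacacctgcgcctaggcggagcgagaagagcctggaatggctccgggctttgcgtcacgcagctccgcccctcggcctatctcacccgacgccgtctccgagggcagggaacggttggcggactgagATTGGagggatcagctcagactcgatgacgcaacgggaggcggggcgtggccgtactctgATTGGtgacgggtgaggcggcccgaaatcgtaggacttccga
In SREBF2 the core starts 133 bases and the CCAAT box (read on the minus strand as ATTGG) 106 bases before the start. NSDHL holds 5 CCAAT matches, 2 of which overlap on opposite strands, and HSD17B7 holds 2.

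Intracellular transport and esterification followed. STARD4, a soluble carrier of cholesterol, rose from 4.66 ± 0.964 to 6.56 ± 0.0454 FPKM (0.43, limma adjusted p = 0.00926), and its call was lost after removal of a GC trend (0.15). Its antisense gene STARD4-AS1, which shares 124 exon bases, went from a mean of 61.7 to 194 reads. The acyltransferases that store cholesterol as esters had small differences, with SOAT1 lower by 0.14 (adjusted p = 0.0301) and SOAT2 higher by 0.18 (adjusted p = 0.0355), calls that were lost or turned under 9 of the 19 alternatives each.

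For uptake, SCARB1 encodes SR-BI, the receptor for high-density lipoprotein. It was at 55.8, 54.2 and 48.0 FPKM in sh-NC and at 33.0, 33.7 and 34.8 FPKM in sh-CLGN. It fell by 0.62 (SE 0.063, limma adjusted p = 8.34e-05), and every sh-CLGN library was below every control. MYLIP encodes the ubiquitin ligase IDOL, which targets lipoprotein receptors for degradation. It was at 3.92, 4.86 and 4.16 FPKM in sh-NC and at 5.95, 6.44 and 6.76 FPKM in sh-CLGN. It rose by 0.48 (SE 0.082, limma adjusted p = 0.00124) with no overlap.

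The exporters were at low levels apart from ABCA1, which loads cholesterol onto apolipoprotein A-I. ABCA1 was at 13.2, 14.8 and 15.6 FPKM in sh-NC and at 16.0, 16.2 and 17.7 FPKM in sh-CLGN. The groups did not overlap, but the difference of 0.18 (95% interval 0.02 to 0.34) missed the threshold at a limma adjusted p of 0.0520, and it passed under 9 of 19 alternatives. ABCG5 and ABCG8 form a heterodimer that exports sterols into bile. ABCG8 was at 0.493, 0.464 and 0.451 FPKM in sh-NC and at 1.71, 1.59 and 1.76 FPKM in sh-CLGN, from 69 to 71 and from 266 to 295 reads. It passed the filter only through the sh-CLGN group, so as a tested gene it had to differ. Its log2 fold change was 0.87 on the scale of FPKM + 1 (SE 0.086, limma adjusted p = 7.08e-05) and 1.84 with voom, and it was at 359% of the control mean.

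ABCG5 failed the filter, at 0.385, 0.405 and 0.660 FPKM in sh-NC and at 0.998, 0.820 and 0.949 FPKM in sh-CLGN, from 20, 22 and 38 to 63, 50 and 57 reads. All sh-CLGN libraries were above all controls, at 191% of the control mean. With looser filters its limma adjusted p was 0.0218 (mean of at least 0.1 FPKM) and 0.0514 (no filter). The genes lie head to head, and annotated exons of each share 137 bases with the other on the opposite strand, so reads of the 2 may be split between them. The RefSeq starts are 132 bases apart (chr2, 43838839 for ABCG5 on the minus strand and 43838971 for ABCG8 on the plus strand). The window of ABCG8, which holds none of the 3 motifs, is shown because it holds both starts (chr2:43838721-43839020, plus strand).
ABCG8: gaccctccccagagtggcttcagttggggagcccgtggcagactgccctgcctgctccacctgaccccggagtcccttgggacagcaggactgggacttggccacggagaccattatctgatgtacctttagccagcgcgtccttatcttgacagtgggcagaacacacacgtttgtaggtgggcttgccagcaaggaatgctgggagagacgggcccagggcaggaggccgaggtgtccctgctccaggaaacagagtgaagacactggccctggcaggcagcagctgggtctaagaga
ABCG1, which exports cholesterol to high-density lipoprotein, also failed the filter. Its reads numbered 23, 16 and 28 across the sh-NC libraries and 5, 10 and 6 across the sh-CLGN libraries, or 0.248 ± 0.0612 and 0.0695 ± 0.0269 FPKM. Its limma adjusted p was 0.0242 with no filter and 0.0612 with a mean of at least 0.1 FPKM.

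Because each group had a single hairpin, the letters of the hairpin's target were looked up among the members. The stated target is a coding stretch of CLGN at chr4:140392328-140392346 on the minus strand. The 8 bases before its final base are in capitals, and these letters, ATACCACA, pair with bases 2 to 9 of the guide strand. Where cells start the guide was not measured.
CLGN target: cgacatatgtATACCACAa
CYP51A1 3′ UTR: gctgaaaaaATACCACAtcgtctgtt
ABCG1 3′ UTR: gaattttaaATACCACAactggggca
CYP51A1 (chr7:92112299-92112306, minus strand) and ABCG1 (chr21:42296655-42296662, plus strand) hold all 8 letters, in the 3′ UTR of 1 of 3 and 6 of 7 coding transcripts. The longest annotated 3′ UTR of SREBF1 holds ATACCAC and TACCACA apart from each other, but these stretches are 3′ UTR in only 2 of 11 coding transcripts and are coding in 3 and 5 others. SQLE, which rose, and SOAT1, which fell, hold ATACCAC, and the other 27 members hold neither heptamer. Both heptamers occur in 3.86% of 10908 tested genes with a 3′ UTR, whose median log2 fold change was -0.16, against -0.12 for genes with neither. Past the fold threshold, 6.18% of the genes with both were called as lower, against 3.16% of those with neither. Genes with both were not matched to those with neither for 3′ UTR length, and their heptamers may lie apart. Whether the hairpin acted on any member was not tested.

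Fold change and GC content were related among the members, as among all genes. Over the 30 tested members, which share the same 6 libraries, Pearson's r between the log2 fold change and transcript GC content was -0.55 and Spearman's rho was -0.61, and over all tested genes rho was -0.32. SREBF1 (62.8%), SCAP (62.3%) and SREBF2 (57.1%) were rich in GC, while INSIG2 (35.4%), STARD4 (34.2%) and IDI1 (41.1%) were not. After removal of a GC trend from each library, the log2 fold change was -1.15 for SREBF1, -0.63 for SREBF2, -0.56 for SCAP, -0.44 for NSDHL and -0.40 for SCARB1. Among members of low GC content, CYP51A1 (41.5%) and SOAT1 (40.0%) fell, and SOAT1 was at -0.25 after the correction. ABCG8 was 1.02 after the correction.

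**Figure D4:**
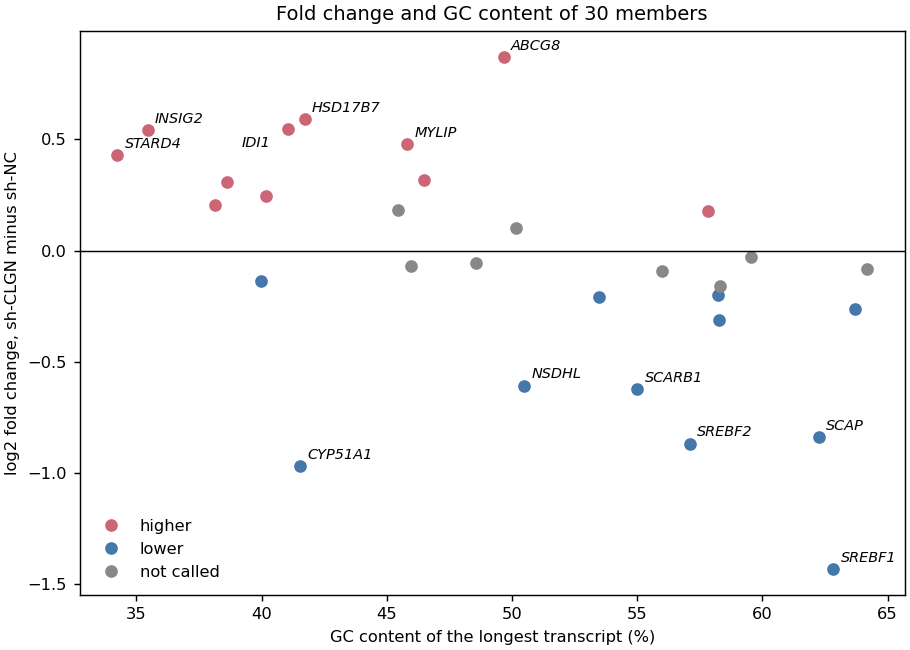
Log2 fold change (y axis, sh-CLGN minus sh-NC) against GC content of the longest transcript in percent (x axis) for the 30 tested members, red for higher, blue for lower and grey for not called. Members past 0.4 in either direction are named. Of the red points, only SOAT2 (57.8%) lies above 49.7% GC, and CYP51A1 is the blue point at 41.5%.

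Other genes of the pathway were counted from 4 lists of 87 genes in all, of which 77 were tested, 18 higher and 33 lower (66.2% called, against 65.8% of all tested genes), with a median of -0.11. Of 18 further genes of sterol sensing and its transcription, 3 rose (16.7%) and 10 fell (55.6%), beside 26.7% and 39% of all tested genes. ERLIN1, a lipid raft protein of the endoplasmic reticulum, fell from 26.2 ± 1.53 to 14.4 ± 0.255 FPKM (-0.82, limma adjusted p = 1.21e-05). MBTPS1 (-0.66) and MBTPS2 (0.46), the proteases that release SREBPs in the Golgi, were named after their values were seen and moved in opposite directions.

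In the isoprenoid branch, 2 of 15 tested genes rose and 6 fell (53.3% called, against 65.8% of all tested genes). RABGGTB (0.67) rose, and COQ2 (-0.60) and DOLK (-0.64), of coenzyme Q and dolichol synthesis, fell. Among 25 tested genes of sterol transport and uptake, 10 rose and 9 fell (76% called, against 65.8% of all tested genes). CAV1, of the caveolae, rose from 4.54 ± 0.247 to 12.8 ± 0.0651 FPKM (1.31), NPC2, which moves cholesterol out of lysosomes, rose by 0.72, and VLDLR, a lipoprotein receptor, fell by 0.91 on the log2 scale. Among 19 tested side enzymes and electron donors, 3 rose and 8 fell (57.9% called, against the same 65.8%). CES1 (-1.80) and NCEH1 (-1.39), both ester hydrolases, and EPHX2 (-1.06) were past the fold threshold, at adjusted p of at most 7.88e-06 in limma.

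**Figure D5:**
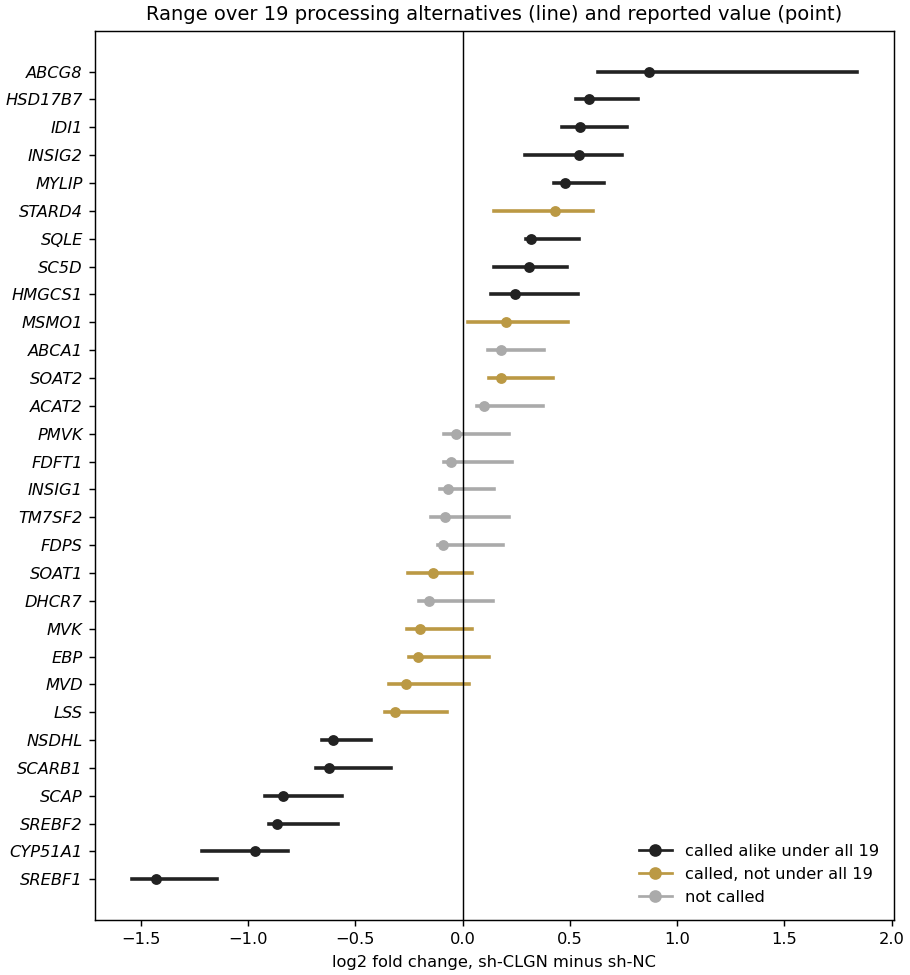
Reported log2 fold change (point) and its range over 19 processing alternatives (line) for the 30 tested members. Black members kept call and direction under all 19, brown were called but not under all 19, and grey were not called. The black lines stay clear of 0, from SREBF1 (-1.54 to -1.15) to ABCG8 (0.63 to 1.84).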

How the data were processed

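Hep-G2 messenger RNA was sequenced in 3 sh-NC and 3 sh-CLGN libraries. The authors deposited 1 table of FPKM per gene and library. The submitters' processing notes name HISAT2 2.0.5, featureCounts and GRCh38, without their roles. Gene positions equalled GENCODE 29 for all 58735 genes. Columns named KD were matched to the sh-CLGN samples by name and number. Multiplied by gene length, 100% of the values were whole multiples of 1 read (tolerance 0.01), which gave back reads per gene.

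The comparison used limma 3.58.1 in R 4.3.3 (eBayes, intensity trend, two-sided, Benjamini-Hochberg over all genes tested) on log2(FPKM + 1), for genes that reached 1 FPKM in 3 or more libraries. This scale understates changes of low genes. P-values measure the spread between these libraries, which the labels do not call separate cultures. Voom used recovered reads. GC content and 3′ UTRs came from GENCODE 29. Per-library values are given for called members whose log2 change was 0.5 or more in size and for the regulators, MYLIP, SCARB1, ABCA1 and ABCG1. Of each other list, 3 genes were taken by smallest adjusted p, with means or fold changes only. Some genes that meet this rule are not reported here. The members and lists were chosen with earlier results of these data known. Same-numbered libraries did not deviate together (r = -0.018, -0.046 and -0.15). The 19 alternatives were a pseudocount of 0.1, 2 looser filters, protein-coding genes alone, 4 scalings, 2 variance models, voom, a GC correction by lowess (span 0.3), the replicate block and the omission of each library. The test was checked on simulated data. Sequences and figures used Python 3.11.15, pandas 2.3.3 and matplotlib 3.10.9.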

Additional observations from a re-analysis of the deposited data

How the results depend on the processing

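Alternatives were tried for each member and count. The replicate numbers do not pair the libraries, and with the replicate number as a block 19 members were called, 10 higher and 9 lower. Members called ranged from 18 to 23 with any 1 library omitted. Members called as higher numbered 17 under quantile normalization, and those called as lower 7 under median-ratio scaling, 7 under TPM, 6 under quantile normalization, 6 on read totals and 7 after GC correction, where the main counts were 11 and 11. These scalings shift the median of all genes by 0.091, 0.121, 0.062, 0.167 and 0.114. Past the fold threshold, 3 members were called (1 higher, ABCG8, and 2 lower, SREBF1 and CYP51A1) with a pseudocount of 0.1, TPM, voom or GC correction, where the main count was 1, 0 higher and 1 lower. Without 1 library the count was 1 to 2, all lower, and 2 without sh-NC replicate 3 or sh-CLGN replicate 2. Other pathway genes called as higher numbered 32 under quantile normalization and 31 on read totals, against 18.

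The sign turned for 6 members that were not called and for SOAT1, EBP, MVK and MVD, which were, and the cause was not tested. In the order median-ratio, TPM, quantile, read totals and GC correction, PMVK was 0.071, 0.093, 0.21, 0.16 and 0.22, FDPS 0.011, 0.031, 0.19, 0.10 and 0.14, FDFT1 0.050, 0.071, 0.23, 0.14 and 0.071, and TM7SF2 0.017, 0.037, 0.13, 0.10 and 0.22. INSIG1 was 0.031, 0.052, 0.15 and 0.11 under the first 4. DHCR7 was 0.14 (quantile), 0.036 (read totals) and 0.085 (GC correction), SOAT1 0.036 and 0.045 (quantile, read totals), EBP 0.12 (quantile), and MVK and MVD 0.042 and 0.030 (GC correction). Without 1 library PMVK ranged from -0.086 to 0.0030, and it turned without sh-CLGN replicate 2. Of the turned values, those of PMVK and FDPS (quantile, GC correction), FDFT1 (quantile, read totals), TM7SF2 (GC correction) and EBP (quantile) passed the test as higher.

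The sums were rescaled after the data were seen. In the order median-ratio, TPM and read totals, the ratio was 1.05, 1.07 and 1.12 for the 18 enzymes, 1.15, 1.16 and 1.22 for the 7 to farnesyl diphosphate, and 1.01, 1.02 and 1.07 for the 11 from squalene. For SREBF1 and SREBF2 it was 0.513 under TPM and 0.537 on read totals. Genes with few reads, such as ABCG1 and ABCG5, are limited by depth.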
